A study of Homo sapiens with 15 samples.

Results

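HGrC1 cells transfected with FOXL2C134W and SMAD3 were compared with HGrC1 cells transfected with FOXL2WT and SMAD3, without FOXO1. The comparison took 6 of the 15 samples of the series, chosen by their labels, with replicates A, B and C in each group. HGrC1 is an immortalized, non-luteinized human granulosa cell line that carries normal FOXL2 alleles, so cells of both groups kept their own wild-type FOXL2 beside the plasmid. The plasmids were delivered by lipofection for 4 h at passage 14, and RNA was taken after 24 h of further culture without serum. The FOXL2 plasmids encode a Flag-tagged protein, and expression was transient in a single line. Of the other 9 samples, 3 received empty vectors (Vectors), 3 received FOXL2WT, SMAD3 and FOXO1-3A, a constitutively active nuclear form of FOXO1, and 3 received FOXL2C134W, SMAD3 and FOXO1-3A. The labels do not say whether replicates were separate cultures, so p-values measure the spread between these samples, which may be technical.

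FOXL2 is a forkhead transcription factor that maintains granulosa cell identity in the ovary. A recurrent somatic change of cysteine to tryptophan in its forkhead domain, C134W, is the defining mutation of adult granulosa cell tumor. SMAD3 carries the signal of TGF-beta and activin receptors to the nucleus, where it binds DNA together with partners such as FOXL2. The comparison asks which genes differ when the mutant in place of the wild-type form is expressed with SMAD3.

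Expression is given as CPM, the share of a library's estimated counts after scaling with TMM factors, and differences as log2 fold changes of FOXL2C134W over FOXL2WT from the quasi-likelihood test of edgeR. All 15 libraries entered the fit, and a gene was called when its Benjamini-Hochberg adjusted p over the 13868 genes tested was under 0.05. The 6 libraries held between 14992137 and 25339094 estimated counts. FOXL2WT replicates differed by 2.31 to 3.17 times counting noise (chi-square per degree of freedom). FOXL2C134W replicates B and C differed by 2.6 times, whereas replicate A stood 7.81 and 8.84 times from them. Counts that move by over 1.5 times without it are also given without it.

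The transfected genes were examined first. FOXL2 (chr3:138944224-138947137, GRCh38) was at 562, 566 and 554 CPM in FOXL2WT replicates A, B and C and at 175, 146 and 121 CPM in FOXL2C134W, against 8.73 ± 0.704 CPM (SD, n = 3) in Vectors. SMAD3, whose plasmid was given to both groups, was at 2890, 2820 and 2590 CPM in FOXL2WT and at 885, 833 and 812 CPM in FOXL2C134W, against 249 ± 12.0 CPM in Vectors. Each gene was thus far above Vectors in all 6 libraries, and both were lower in the mutant group, without overlap. FOXL2 was 3.81-fold lower (log2 fold change -1.93, standard error 0.10, edgeR adjusted p = 6.1e-10) and SMAD3 3.28-fold lower (-1.72, standard error 0.05, edgeR adjusted p = 3.6e-14). FOXO1, not transfected here, was at 11.8 to 13.0 CPM in FOXL2WT and 11.6 to 12.4 CPM in FOXL2C134W. Protein was not analysed here, and the study reports balanced FOXL2WT, FOXL2C134W and FOXO1 protein by immunoblot of cells cultured in parallel. It reports no such measurement for SMAD3. Reads of the wild-type and mutant forms, or of plasmid and endogenous RNA, are counted together. The form of FOXL2 and the amounts of FOXL2 and SMAD3 RNA therefore cannot be told apart in any result that follows.

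**Figure D1:**
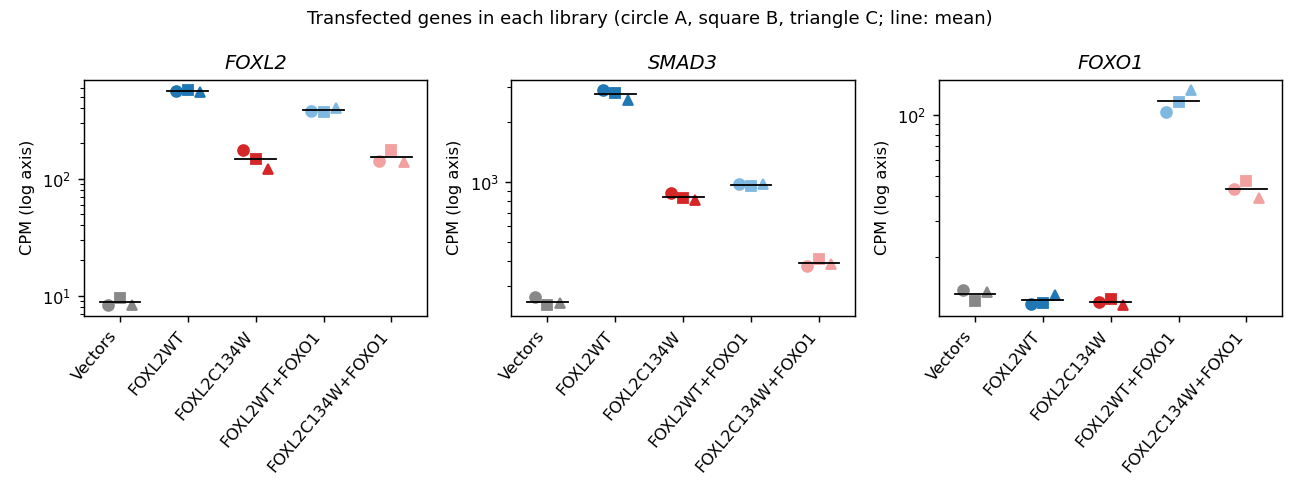
CPM on a log axis of the 3 transfected genes in each of the 15 libraries, by group, with the group mean as a line. FOXL2 and SMAD3 were above Vectors in all transfected libraries and lower with FOXL2C134W than with FOXL2WT, and FOXO1 was raised only in the 6 libraries that received FOXO1-3A.

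FOXL2C134W and FOXL2WT differed in 1560 genes, 11.2% of those tested. Of these, 989 were higher in FOXL2C134W (7.13%) and 571 were lower (4.12%). Most differences were small. The median log2 fold change was 0.32 among genes called higher and -0.21 among genes called lower, 147 called genes changed by more than 1.5-fold (118 higher and 29 lower) and 28 by more than 2-fold. In 1507 of the called genes the 3 libraries of one group did not overlap those of the other, a separation found in 30.4% of all genes tested. The count was 745 without FOXL2WT replicate B, 791 without FOXL2C134W replicate B, 871 without FOXL2C134W replicate C and 2168 without FOXL2C134W replicate A, and it was 759 in DESeq2 with transcript length offsets. In all, 310 genes, 226 higher and 84 lower, passed the threshold whichever of the 6 libraries was omitted and under all 11 other settings. FOXL2C134W replicate A was the lowest of its group for 74.5% of the genes called higher and the highest for 51.7% of those called lower, and 1380 of the 1560 genes were called in the same direction without it. The same shares over all genes tested are not given here, so whether they are particular to called genes was not tested. Vectors served as a baseline level. Its mean lay between the means of both groups for 804 of the 989 genes called higher, below both or above both for the rest, and between them for 318 of the 569 genes called lower when FOXL2 and SMAD3 are set aside.

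Genes called higher had longer transcripts than genes called lower. Their median transcript length was 3994 bases and their median GC content 52.5%, against 2110 bases and 49.1% for all genes tested and 1700 bases and 46.7% for genes called lower. Of the 2774 longest genes 20.3% were called higher and 1.51% lower, and of the 2774 shortest 1.19% and 5.41%. The libraries themselves differed along length. From the 2774 shortest to the 2774 longest genes, the median deviation of a library from the mean of the 6 changed by -0.08, -0.09 and -0.09 on the log2 scale in FOXL2WT replicates A, B and C, by 0.15 and 0.14 in FOXL2C134W replicates B and C, but by -0.03 in FOXL2C134W replicate A. Offsets for gene length left 787 genes called higher and 673 lower, so that 53.9% of calls were higher in place of 63.4%. With offsets for length and GC content together, 893 were called higher and 780 lower, and 1156 of the 1560 genes were called in the same direction.

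**Figure D2:**
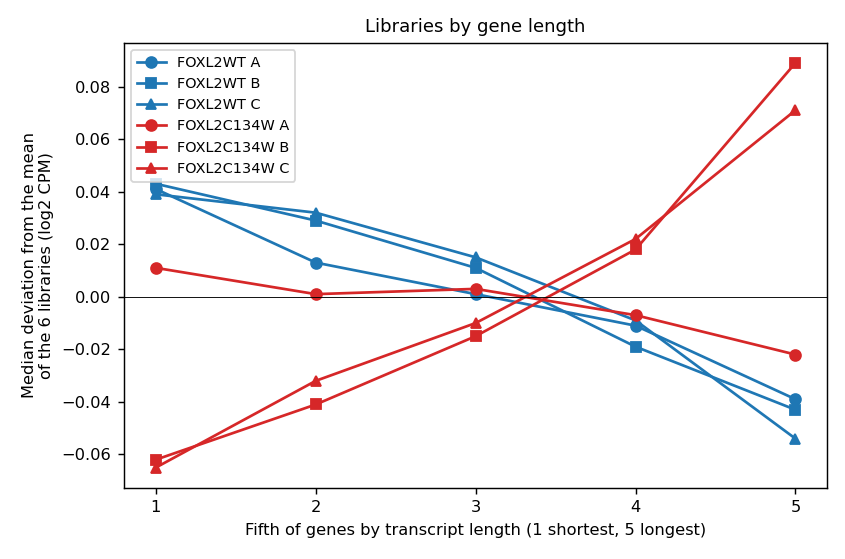
Median deviation of each of the 6 libraries from their mean (log2 CPM) in 5 bins of genes ordered by transcript length. The 3 FOXL2WT libraries fall from the shortest to the longest genes, FOXL2C134W replicates B and C rise, and FOXL2C134W replicate A falls by less than the FOXL2WT libraries.

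Genes called higher with the smallest p, among those without overlap, included MYH9, SMARCA4, NFIC, FLNA, PLEC, FLNC and HCFC1. NFIC, a transcription factor of the nuclear factor I family, was at 56.0, 48.4 and 53.9 CPM in FOXL2WT and at 81.2, 90.8 and 94.5 CPM in FOXL2C134W (log2 fold change 0.75, standard error 0.07, edgeR adjusted p = 3.1e-06). HCFC1, a scaffold that links transcription factors to chromatin modifiers, was at 51.1, 52.6 and 53.9 CPM against 77.7, 91.5 and 86.3 CPM (0.70, standard error 0.07, edgeR adjusted p = 8.6e-06). In both genes replicate A was the lowest library of the mutant group. It was above every wild-type library, as the choice of genes without overlap required. All 7 genes kept their calls under each of the 6 omissions and 11 other settings.

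Called genes of the actin cytoskeleton were mostly higher, where 7.13% of all genes and 20.3% of the 2774 longest were called higher. Of 25 tested actin cross-linkers, myosin II chains and focal adhesion linkers, 17 were higher in FOXL2C134W and 2 were lower, with a median log2 fold change of 0.31 where the median of all genes was -0.012. MYH9, the heavy chain of non-muscle myosin IIA, was at 1180, 1080 and 1150 CPM in FOXL2WT and at 1690, 1950 and 1890 CPM in FOXL2C134W (0.70, standard error 0.05, edgeR adjusted p = 5.5e-07). FLNA, which cross-links actin filaments and anchors them to membrane proteins, was at 1830, 1700 and 1790 CPM against 2410, 2550 and 2390 CPM (0.47, standard error 0.05, edgeR adjusted p = 6.4e-06). Neither gene had overlapping libraries, which was a condition for choosing them among the genes with the smallest p. FLNC rose by 0.54 and PLEC, the plakin that ties intermediate filaments to actin and adhesion sites, by 0.77 (edgeR adjusted p = 7.9e-06 and 7.4e-06). Smaller rises were seen in the alpha-actinins ACTN1 (0.25) and ACTN4 (0.31), in talin TLN1 (0.44), in spectrins SPTAN1 (0.49) and SPTBN1 (0.50), in tensin TNS1 (0.50) and in zyxin ZYX (0.26), the last of which lost its call without FOXL2WT replicate B. The 2 members that fell, MYL12A and MYL12B (both -0.17), are the short regulatory light chains of myosin II, and their calls were lost without FOXL2WT replicate A or B or FOXL2C134W replicate B or C. With length and GC offsets 17 of the 25 were called and the median was 0.28. The integrins, the membrane receptors to which these linkers attach, had 0 of 14 tested members called by edgeR or DESeq2 (1 at an unadjusted p under 0.05, and 2 called by edgeR with gene length offsets), with ITGB1 at 1550 to 1580 CPM in FOXL2WT and 1560 to 1610 CPM in FOXL2C134W.

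Called collagens and basement membrane proteins were mostly higher, where 7.13% of all genes and 20.3% of the 2774 longest were called higher. Of 22 tested collagens, 11 were called higher and 0 lower, with a median of 0.23. COL4A2, a chain of the basement membrane network, was at 1610, 1480 and 1630 CPM in FOXL2WT and at 2040, 2140 and 2170 CPM in FOXL2C134W (0.43, standard error 0.05, edgeR adjusted p = 2.3e-05). COL5A1, a chain of a fibrillar collagen, rose by 0.56 (standard error 0.07, edgeR adjusted p = 3.8e-05), and other collagens that rose included COL4A1 (0.24), COL18A1 (0.45) and COL12A1 (0.40). Among 19 other basement membrane proteins, 7 were higher and 1, SPARC (-0.13), was lower, though not without FOXL2C134W replicate C. HSPG2 encodes perlecan, the large heparan sulfate proteoglycan of basement membranes. It was at 178, 171 and 166 CPM in FOXL2WT and at 276, 360 and 321 CPM in FOXL2C134W, with 247 ± 16.3 CPM (SD, n = 3) in Vectors (0.89, standard error 0.10, edgeR adjusted p = 2.5e-05). FOXL2C134W was thus above Vectors and FOXL2WT below it. The laminin chain LAMA5 rose by 0.64 (standard error 0.08, edgeR adjusted p = 1.1e-04) but lost its call in DESeq2 with transcript length offsets (adjusted p = 0.09, range over its alternatives 5.4e-33 to 0.09). Syndecans and other proteoglycans went both ways, with 3 of 15 higher and 3 lower. SDC2 (-0.27) and SDC4 (-0.19), cell surface syndecans, and SDCBP (-0.19), which binds their cytoplasmic tails, were the ones that fell, SDC4 not without replicate B of either group, and SDC2 and SDCBP not in DESeq2 with transcript length offsets. With both offsets 10 of the 22 collagens and 5 of the 19 basement membrane proteins were called, at medians of 0.12 and 0.05.

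Called members of chromatin complexes were mostly higher in FOXL2C134W, where 7.13% of all genes were called higher. Of 24 tested remodelers of the CHD, ISWI, INO80 and TIP60 families, 14 rose and 0 fell (median 0.29), and of 29 histone acetyltransferases and lysine methyltransferases 15 rose and 0 fell (median 0.27). In the SWI/SNF complex 7 of 26 subunits rose and 1, BCL7B, fell, a call lost without FOXL2WT replicate B or FOXL2C134W replicate C. SMARCA4, the BRG1 ATPase of that complex, was at 73.3, 66.7 and 73.2 CPM in FOXL2WT and at 106, 115 and 119 CPM in FOXL2C134W (0.67, standard error 0.06, edgeR adjusted p = 2e-06). Its DNA-binding subunit ARID1A rose by 0.58 (standard error 0.07, edgeR adjusted p = 9.3e-05). EP400, the ATPase of the TIP60 complex, was at 21.8, 18.9 and 20.6 CPM against 31.9, 45.0 and 42.5 CPM (0.96, standard error 0.11, edgeR adjusted p = 2.4e-05), and TRRAP, a scaffold of the same complex, rose by 0.56. BAZ2A, a subunit of the nucleolar remodeling complex, rose by 0.29 (standard error 0.06, edgeR adjusted p = 0.0023). KMT2D, which methylates histone H3 at enhancers, was between 19.4 and 21.7 CPM in FOXL2WT and at 36.1, 56.2 and 46.7 CPM in FOXL2C134W (1.19, standard error 0.14, edgeR adjusted p = 3e-05). CREBBP, an acetyltransferase that SMAD3 recruits, rose by 0.82 (standard error 0.10, edgeR adjusted p = 6e-05) and its paralog EP300 by 0.51. For EP400 and KMT2D replicate A was again the lowest mutant library and lay above all wild-type libraries. These lists hold long genes, with median transcript lengths of 4580 and 3949 bases in the first 2 lists. With length and GC offsets 14 of 24 and 14 of 29 were called, at medians of 0.17 and 0.16, and DESeq2 with transcript length offsets called 6 of each. For the SWI/SNF complex the median was 0.10 without and 0.05 with both offsets, and DESeq2 with transcript length offsets called 2 of 26.

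MKI67, the proliferation antigen Ki-67, had the largest log2 fold change of the named genes that rose. It was at 17.5, 19.3 and 18.7 CPM in FOXL2WT and at 39.9, 63.9 and 60.6 CPM in FOXL2C134W, with 34.3 ± 5.81 CPM (SD, n = 3) in Vectors (1.57, standard error 0.16, edgeR adjusted p = 1.3e-05). The mutant libraries were 2.97-fold above the wild-type libraries without overlap, and replicate A was nearer Vectors than the other two. CENPF, a kinetochore protein, was at 31.1, 32.4 and 36.1 CPM against 39.4, 79.1 and 78.4 CPM (0.97, standard error 0.19, edgeR adjusted p = 0.0025). It was not called in DESeq2 with transcript length offsets (adjusted p = 0.39, range over its alternatives 4.6e-47 to 0.39). Across 30 mitosis genes 6 rose, namely MKI67, CENPF, ASPM, CENPE, KIF23 and TOP2A, and the centromeric histone CENPA fell (-0.16). MKI67 and CENPF were called under each omission of a library, the other 4 not without FOXL2WT replicate A or B or FOXL2C134W replicate B or C, and CENPA under none. The median of the list was 0.10, and 7.13% of all genes were called higher. MKI67 and CENPF, with transcript lengths of 10684 and 5917 bases, are among the 2774 longest genes, of which 20.3% were called higher. With length and GC offsets 8 of the 30 mitosis genes were called, and in DESeq2 with transcript length offsets 3. In bulk RNA more cells in mitosis and more RNA per cell cannot be told apart. Of 30 DNA replication and repair genes 6 rose and 0 fell (median 0.10). With gene length offsets 3 of the 30 were called, in DESeq2 with transcript length offsets 1, and without FOXL2C134W replicate A 10. Those named, PRKDC (0.29), BRCA2 (0.44) and POLQ (0.33), each lost their calls without FOXL2WT replicate A, FOXL2C134W replicate B or FOXL2C134W replicate C, BRCA2 and POLQ also without FOXL2WT replicate B, and PRKDC and POLQ also without FOXL2WT replicate C. PRKDC and POLQ also lost their calls with gene length offsets, and PRKDC in DESeq2 with transcript length offsets. BRCA2 was at -0.18 when DESeq2 was run with offsets for transcript length. The libraries of FOXL2WT and FOXL2C134W overlapped for PRKDC and BRCA2 but not for POLQ.

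Members of the Notch and Hedgehog pathways and giant cadherins were higher in 9 of 25 tested cases and lower in 1, the Notch ligand JAG1 (-0.23, not called without FOXL2WT replicate A or FOXL2C134W replicate C). GLI2, the activating transcription factor of Hedgehog signaling, was at 14.5, 15.1 and 16.1 CPM in FOXL2WT and at 25.9, 27.6 and 25.8 CPM in FOXL2C134W (0.79, standard error 0.08, edgeR adjusted p = 1.5e-05). The receptor NOTCH1 rose by 0.53, and CELSR2, a seven-pass cadherin of planar cell polarity, by 0.82 (edgeR adjusted p = 0.0018 and 1.2e-04). In GLI2 replicate A did not stand apart from B and C. The list had the longest genes of the 31, with a median transcript length of 5763 bases. Of the 2774 longest genes tested 20.3% were called higher, against 7.13% of all genes. Its median log2 fold change was 0.17 without and 0.05 with length and GC offsets, and DESeq2 with transcript length offsets called 5 of 25. Mitochondrially encoded mRNAs were higher too, although they are short. Of 12 tested, 9 rose and 0 fell, with a median of 0.42 and, with length and GC offsets, of 0.49. MT-ND4, a subunit of respiratory complex I, was at 293, 279 and 319 CPM against 372, 453 and 461 CPM (0.53, standard error 0.08, edgeR adjusted p = 4.1e-04), and MT-ND2 of the same complex rose by 0.39. The nuclear-encoded subunits of oxidative phosphorylation did not share this rise, since 0 of 75 rose and 5 fell (median -0.10), with 11 called without FOXL2C134W replicate A. The share called, 6.67%, was below the 11.2% of all genes, and the median was -0.03 with length and GC offsets. SDHD of complex II (-0.23) and NDUFA9 of complex I (-0.29) were the members with the smallest p, and their calls were lost without replicate B of either group, that of NDUFA9 also without FOXL2C134W replicate C. Mitochondrial transcripts made up 0.277% to 0.309% of the counts in FOXL2WT and 0.314% to 0.369% in FOXL2C134W, and whether RNA quality or cell condition moved with them was not tested.

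**Figure D3:**
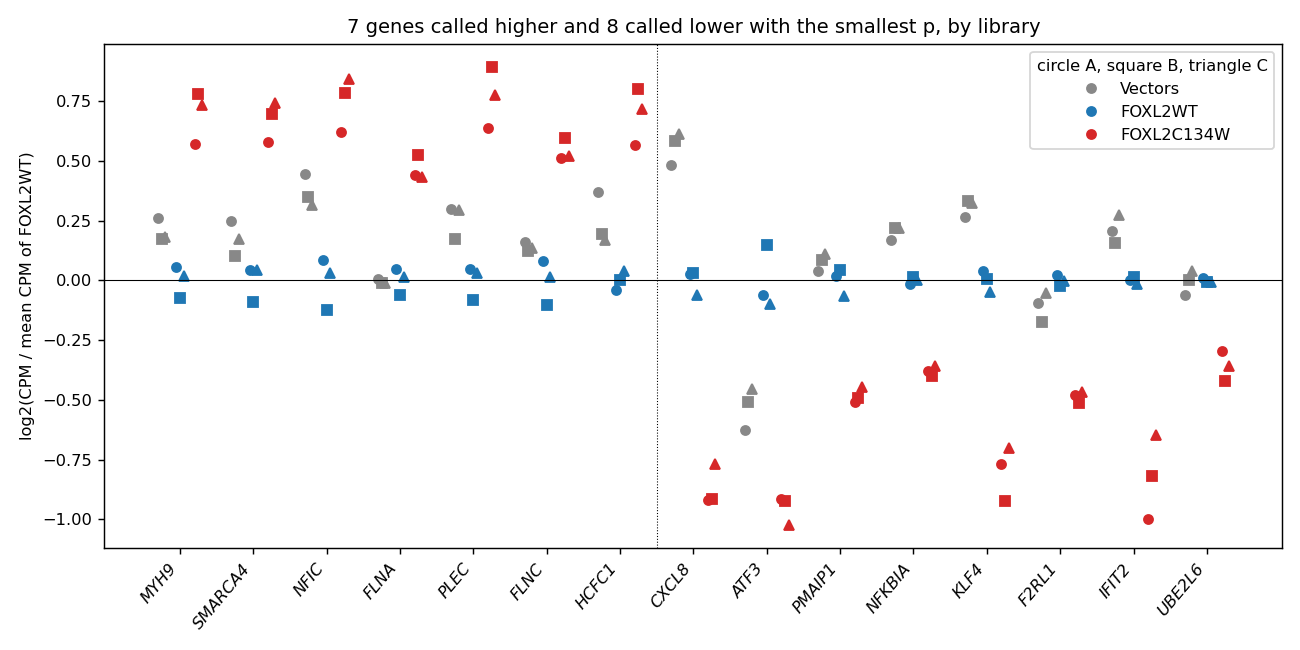
log2 of CPM over the mean of FOXL2WT for 7 genes called higher and 8 called lower with the smallest p, in the 3 libraries of Vectors, FOXL2WT and FOXL2C134W. FOXL2C134W libraries lie above all FOXL2WT libraries in the first 7 genes and below them in the last 8, because only genes without overlap were chosen. Vectors lies between the groups in MYH9 but above FOXL2WT in CXCL8.

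Genes of NF-kappaB signaling and inflammation were among those that fell, as were 4.12% of all genes tested. CXCL8, the neutrophil chemoattractant interleukin-8, was at 99.2, 99.7 and 93.5 CPM in FOXL2WT and at 51.6, 51.7 and 57.3 CPM in FOXL2C134W, with 143 ± 6.92 CPM (SD, n = 3) in Vectors (-0.86, standard error 0.07, edgeR adjusted p = 5.5e-07). NFKBIA, the inhibitor that holds NF-kappaB in the cytoplasm and is itself an NF-kappaB target, was at 103, 105 and 104 CPM against 80.0, 78.8 and 81.2 CPM (-0.38, standard error 0.04, edgeR adjusted p = 6.4e-06). Replicates were close within each group for both genes, and replicate A did not stand apart. Of 25 tested cytokines and chemokines, 9 fell and 0 rose, and all 25 had a negative log2 fold change (median -0.34). They included CXCL10 (-1.08), CXCL1 (-0.60), CXCL2 (-0.44), CCL5 (-0.37) and IL6 (-0.36). The calls of CXCL1, CXCL2, CCL5 and IL6 were lost without FOXL2WT replicate B or FOXL2C134W replicate B, and those of CXCL1 and IL6 also without FOXL2C134W replicate C, of IL6 without FOXL2WT replicate A, and of CXCL2 without FOXL2WT replicate C or FOXL2C134W replicate A. IFNB1, interferon beta, fell by 2.32 on the log2 scale (standard error 0.40, edgeR adjusted p = 0.001) but rested on 21 to 24 counts per FOXL2WT library and 3 to 9 per FOXL2C134W library. In DESeq2 with transcript length offsets only CXCL8 of this list was called, and without FOXL2C134W replicate A 6 of the 25. Of 20 NF-kappaB subunits and feedback inhibitors, NFKBIA, the deubiquitinase TNFAIP3 (-0.38), the subunit RELB (-0.42) and the adaptor TRAF1 (-0.33) fell and 0 rose, TRAF1 not without FOXL2WT replicate B or C or FOXL2C134W replicate B.

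The promoters of the inflammatory genes that fell are shown because 6 of them share a motif. The deposited data hold no binding measurements, so sequence was read from RefSeq promoters (GRCh38.p14), searched on both strands over the 250 bases before the start, for TGTTTAC (forkhead), GTCTAGAC (SMAD palindrome), AGNCANAA (composite) and, chosen after the values were seen, GGAANTTCC (NF-kappaB). The motifs can overlap. Below, the 180 bases before the start are written 5′ to 3′ on the strand of the gene with the GGAANTTCC match in capitals. They lie at chr4:73740389-73740568 (CXCL8, plus strand), chr4:73869213-73869392 (CXCL1, plus), chr4:74099196-74099375 (CXCL2, minus), chr4:76023498-76023677 (CXCL10, minus), chr9:21077943-21078122 (IFNB1, minus) and chr14:35404750-35404929 (NFKBIA, minus).
CXCL8: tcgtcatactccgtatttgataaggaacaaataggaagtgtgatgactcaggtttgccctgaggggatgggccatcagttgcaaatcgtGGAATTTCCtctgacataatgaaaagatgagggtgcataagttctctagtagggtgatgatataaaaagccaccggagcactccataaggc
CXCL1: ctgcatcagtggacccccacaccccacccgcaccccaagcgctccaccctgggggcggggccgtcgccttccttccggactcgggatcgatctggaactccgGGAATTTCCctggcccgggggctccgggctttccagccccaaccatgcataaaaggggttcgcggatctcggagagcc
CXCL2: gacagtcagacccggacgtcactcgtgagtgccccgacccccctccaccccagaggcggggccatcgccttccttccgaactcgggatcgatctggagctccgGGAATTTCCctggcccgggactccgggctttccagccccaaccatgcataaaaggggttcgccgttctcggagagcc
CXCL10: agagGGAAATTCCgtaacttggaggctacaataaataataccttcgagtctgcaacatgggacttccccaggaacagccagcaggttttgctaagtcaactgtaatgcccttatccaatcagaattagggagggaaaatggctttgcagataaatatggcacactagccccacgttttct
IFNB1: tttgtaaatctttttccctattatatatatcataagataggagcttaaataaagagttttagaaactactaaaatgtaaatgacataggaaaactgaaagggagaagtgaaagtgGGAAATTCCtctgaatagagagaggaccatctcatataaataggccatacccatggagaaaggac
NFKBIA: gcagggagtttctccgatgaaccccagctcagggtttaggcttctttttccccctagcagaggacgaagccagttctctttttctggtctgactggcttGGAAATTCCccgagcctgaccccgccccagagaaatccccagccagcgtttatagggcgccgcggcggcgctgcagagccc
The match begins 91 bases before the start in CXCL8, 78 in CXCL1, 77 in CXCL2, 176 in CXCL10, 65 in IFNB1 and 81 in NFKBIA. CXCL1 and CXCL2 are near copies of each other and also share much of the sequence around it. Of the 13 members of both lists that were called lower, 10 had a promoter entry and 6 of these held the motif, as did 13 of the 34 tested members with an entry. It was present in 0.899% of the 10791 promoters of all genes tested, in 1.94% of those of genes called lower and in 0.74% of those of genes called higher. The 1.94% stands for 9 promoters, which include the 6 printed above. It is therefore not a result separate from those 6, whose values were seen before the motif was chosen. MYH9 (chr22:36387968-36388147, minus) and SMARCA4 (chr19:10960850-10961029, plus), which rose, had none of the 4 motifs. The same held for ATF3, PMAIP1, KLF4, F2RL1, UBE2L6, TNFAIP3, TRAF1 and IL1A, which fell. Since 0.899% of all promoters held the NF-kappaB motif, its absence from single genes does not set the 2 directions apart. The median GC content of the 250 bases was 67.6% for genes called higher, 64.4% for genes called lower and 65.2% for all.
MYH9: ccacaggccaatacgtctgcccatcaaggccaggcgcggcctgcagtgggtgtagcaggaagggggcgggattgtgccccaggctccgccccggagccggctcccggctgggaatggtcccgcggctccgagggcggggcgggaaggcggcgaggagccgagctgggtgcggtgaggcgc
SMARCA4: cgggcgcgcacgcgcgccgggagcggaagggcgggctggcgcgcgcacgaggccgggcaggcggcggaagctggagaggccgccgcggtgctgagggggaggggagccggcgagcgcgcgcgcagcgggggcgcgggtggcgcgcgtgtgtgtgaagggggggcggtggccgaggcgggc
The motifs of the transfected factors were about as frequent in called as in all promoters. The forkhead motif was found in 1.73% of promoters of genes called higher and 2.16% of those called lower, against 1.89% of all. The composite motif was found in 7.27%, 7.99% and 8.56%, and the SMAD palindrome in 2 promoters of genes called higher, 0 of those called lower and 13 of all. A match describes letters in this window and no binding.

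Called members of the interferon-stimulated genes and of the MHC class I pathway were mostly lower, where 4.12% of all genes were called lower. Of 40 interferon-stimulated genes 17 fell and 1, EIF2AK2, rose, with a median of -0.17. The call of EIF2AK2 held only without FOXL2C134W replicate A. IFIT2, which binds viral RNA, was at 436, 440 and 431 CPM in FOXL2WT and at 218, 247 and 278 CPM in FOXL2C134W (-0.81, standard error 0.09, edgeR adjusted p = 1.5e-05). Here replicate A was the lowest of the mutant libraries, farthest from FOXL2WT. The nucleotide kinase CMPK2 fell by 0.37, the antiviral enzyme RSAD2 by 0.51 and UBE2L6, which conjugates ISG15, by 0.36 on the log2 scale. Of 18 genes of MHC class I and peptide loading 5 fell, 1, TAPBP, rose and 12 were not called, and without FOXL2C134W replicate A 9 of the 18 were called. TAP1, the peptide transporter, was at 309, 309 and 297 CPM against 253, 226 and 235 CPM (-0.36, standard error 0.05, edgeR adjusted p = 1.2e-04). PSMB8 of the immunoproteasome fell by 0.31 on the same scale. Vectors was at 505 ± 19.7 CPM for IFIT2 and 309 ± 10.2 CPM for TAP1 (SD, n = 3), at or above the level of FOXL2WT.

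The ATF4 pathway, which raises amino acid synthesis and stress regulators, was lower in 14 of 28 members and higher in 0 (median -0.19). Among all genes 4.12% were called lower. DESeq2 with transcript length offsets called 7 of the 28, and edgeR with length and GC offsets 19. ATF3, a stress-induced transcription factor, was at 40.0, 46.2 and 38.9 CPM in FOXL2WT and at 22.1, 22.0 and 20.5 CPM in FOXL2C134W, with 28.9 ± 1.75 CPM (SD, n = 3) in Vectors (-0.95, standard error 0.08, edgeR adjusted p = 5.8e-07). ATF4 itself fell by 0.17 (edgeR adjusted p = 0.011), a call lost without FOXL2WT replicate B or FOXL2C134W replicate B. DDIT4 (-0.29), ASNS (-0.29), PSAT1 (-0.25), SHMT2 (-0.25) and TRIB3 (-0.41) fell as well. PSAT1 was not called without FOXL2WT replicate B. The Vectors mean was below that of FOXL2C134W for ATF4, ASNS, PSAT1, SHMT2 and TRIB3 and between both groups for DDIT4, whereas it was above that of FOXL2WT for CXCL8, CXCL1, CXCL2 and NFKBIA. XBP1, a transcription factor of the unfolded protein response, fell by 0.27 (standard error 0.04, edgeR adjusted p = 2.3e-04), with HERPUD1 and DNAJB9, while SYVN1, a ubiquitin ligase of the endoplasmic reticulum, rose by 0.34. In that list 3 of 22 fell and 1 rose, SYVN1, though not in DESeq2 with transcript length offsets.

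Regulators of apoptosis and the cell cycle were among the lower genes, a direction called in 4.12% of all genes. PMAIP1, the pro-apoptotic BH3-only protein NOXA, was at 268, 273 and 253 CPM in FOXL2WT and at 186, 188 and 194 CPM in FOXL2C134W (-0.48, standard error 0.04, edgeR adjusted p = 7.3e-07). Of 26 p53 targets and cell cycle inhibitors 6 fell and 0 rose, with CDKN2D (-0.58), CDKN1B (-0.16) and the low-expressed CDKN1C (-1.09) among them, and of 15 BCL2 family genes PMAIP1, BAK1 (-0.27) and BCL2L13 (-0.20) fell and 0 rose. CDKN1B lost its call without FOXL2WT replicate C or FOXL2C134W replicate B, and BAK1 without FOXL2WT replicate A or B or FOXL2C134W replicate B or C. BCL2L13 was not called in DESeq2 with transcript length offsets. KLF4, a zinc finger factor, was at 16.6, 16.2 and 15.6 CPM against 9.46, 8.52 and 9.91 CPM (-0.79, standard error 0.08, edgeR adjusted p = 7.9e-06). In the list of 23 immediate early genes and KLF factors 6 fell, ATF3, KLF4, KLF10, JUNB, KLF11 and FOSB, whereas FOSL1 (0.28) and EGR1 (0.48) rose. EGR1 lost its call without FOXL2WT replicate B or FOXL2C134W replicate C, and FOSB without FOXL2WT replicate A or FOXL2C134W replicate B. F2RL1, the protease-activated receptor PAR2, was at 55.3, 53.6 and 54.4 CPM against 39.0, 38.2 and 39.4 CPM (-0.49, standard error 0.05, edgeR adjusted p = 1.4e-05). Of 30 lysosome genes 7 fell, LAMP2 (-0.18) and LIPA (-0.19) with the smallest p, and 1, CTSZ, rose, though not without FOXL2WT replicate B. AMIGO2, a cell adhesion protein, fell by 0.23 on the log2 scale (edgeR adjusted p = 0.001).

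Members of the TGF-beta pathway, which SMAD3 serves, went both ways. Of 29 TGF-beta and activin ligands, receptors and binding proteins 20.7% were called, against 11.2% of all genes, and 4 rose, LTBP2 (0.35), THBS1 (0.24), ENG (0.27) and LTBP4 (0.29), and 2 fell, BAMBI (-0.25) and GDF15 (-0.34). THBS1, ENG and LTBP4 store, activate or bind TGF-beta, and BAMBI is a decoy receptor. Without FOXL2WT replicate B the calls of ENG, LTBP4 and GDF15 were lost, that of LTBP4 also without FOXL2C134W replicate C, and that of GDF15 held only without FOXL2C134W replicate B. TGFB1 was at 79.0, 67.1 and 73.4 CPM in FOXL2WT and 85.7, 80.6 and 80.5 CPM in FOXL2C134W (0.17, standard error 0.06, edgeR adjusted p = 0.076), and TGFB2 at 323, 310 and 293 CPM against 323, 344 and 332 CPM (0.11, standard error 0.04, edgeR adjusted p = 0.08). Neither passed the threshold, although both did in DESeq2. Of 16 SMADs and cofactors other than SMAD3, the corepressor SKI rose (0.36) and TGIF1 fell (-0.29). SKI was not called in DESeq2 with transcript length offsets. Among 24 TGF-beta response genes 20.8% were called, and 8 of the 24 were called without FOXL2C134W replicate A. FN1 (0.30) and COL1A1 (0.23) rose and JUNB (-0.42), ID2 (-0.18) and VEGFA (-0.20) fell, so the called members went both ways (median -0.08). For FN1 the mean was 2160 CPM in Vectors, 1770 CPM in FOXL2WT and 2190 CPM in FOXL2C134W. For COL1A1 the Vectors mean of 1540 CPM was above both groups (1150 and 1340 CPM). For JUNB it was 70.8 CPM, against 70.6 CPM in FOXL2WT and 52.9 CPM in FOXL2C134W. COL1A1 lost its call without FOXL2WT replicate B, and ID2 and VEGFA without replicate B or C of either group.

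In several other lists the share of members called was 0 or near that of all genes, 11.2%. Of 15 tested granulosa cell and steroidogenesis genes 0 were called by edgeR and 1 by DESeq2, with 3 at an unadjusted p under 0.05, and 2 were called by edgeR without FOXL2C134W replicate A. GATA4, the most abundant, was at 129, 131 and 138 CPM in FOXL2WT and 141, 150 and 147 CPM in FOXL2C134W (0.14, standard error 0.05, edgeR adjusted p = 0.057), and was called by DESeq2 (adjusted p = 0.028). Of 26 receptor tyrosine kinases 3 rose (11.5%), ERBB2 (0.22), EGFR (0.28) and IGF1R (0.20). ERBB2 lost its call in DESeq2 with transcript length offsets. EGFR lost its call with gene length offsets and without FOXL2C134W replicate B. IGF1R lost it without FOXL2WT replicate A or B or FOXL2C134W replicate B or C. Of 24 genes of cholesterol synthesis and uptake, of which 5 were called without FOXL2C134W replicate A, the fatty acid synthase FASN rose (0.49) and INSIG1 (-0.29) and MSMO1 fell, and of 18 heat shock proteins BAG3 (0.22) and HSP90AA1 (0.20) rose. INSIG1 and MSMO1 lost their calls without replicate B of either group, MSMO1 also without FOXL2WT replicate A, and HSP90AA1 without FOXL2WT replicate A or B or FOXL2C134W replicate B or C. INSIG1 and HSP90AA1 were also not called in DESeq2 with transcript length offsets, nor HSP90AA1 with gene length offsets. Of 79 ribosomal protein genes 0 were called by edgeR or DESeq2, but 9 by edgeR without FOXL2C134W replicate A, and 16 had an unadjusted p under 0.05, with a median of -0.10 (RPS2 -0.16, edgeR adjusted p = 0.17). RRBP1, a ribosome receptor of the endoplasmic reticulum, rose from 91.5, 72.7 and 86.0 to 131, 161 and 165 CPM (0.86, standard error 0.09, edgeR adjusted p = 1.6e-05).

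**Figure D4:**
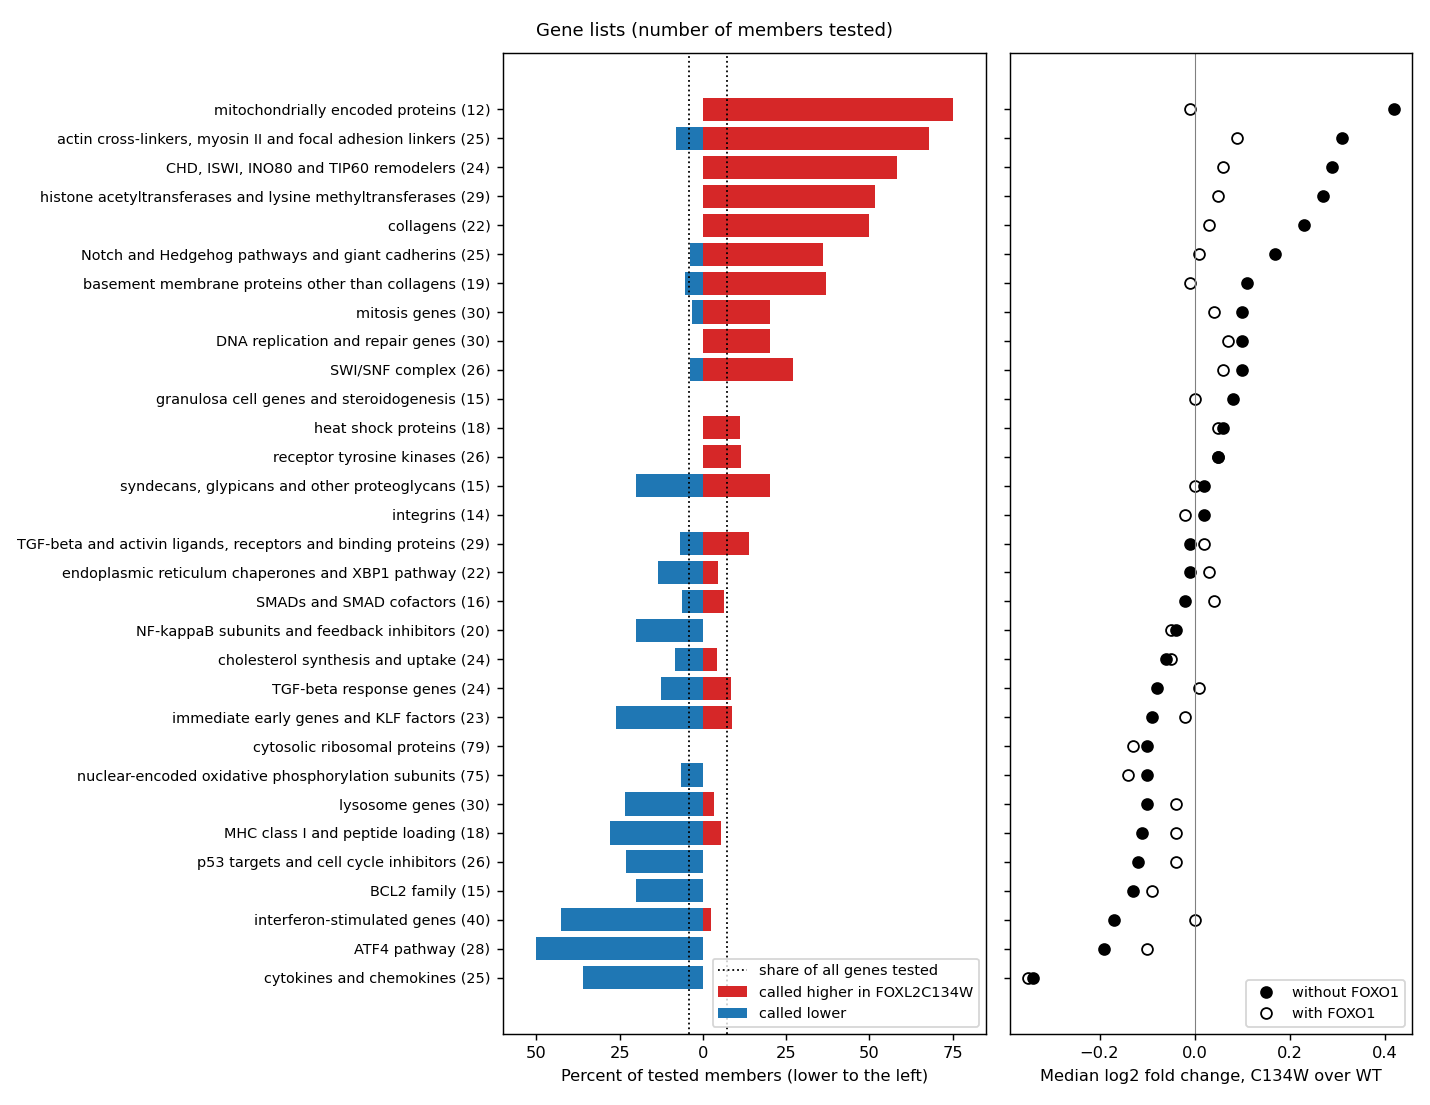
Left, percent of the tested members of each of 31 gene lists called higher (to the right) or lower (to the left) in FOXL2C134W, with the share of all genes tested as dotted lines. Right, median log2 fold change of each list without FOXO1 (filled) and with FOXO1 (open). Actin linkers, chromatin remodelers and collagens lie to the right without FOXO1 and near 0 with it, and cytokines lie at -0.34 without and -0.35 with it.

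The granulosa identity of the line was checked with marker genes. GATA4, NR5A1, FST and KRT18 were detected, and AMH and NR5A2 only at low levels (0.855 to 1.94 and 0.125 to 0.556 CPM). FSHR and INHA had at most 3 counts and CYP19A1 and AMHR2 at most 4 counts in each of the 6 libraries. The summed level of the 10 granulosa markers was 1900 to 1970 CPM in FOXL2WT and 1980 to 2050 CPM in FOXL2C134W, nearly all of it KRT18. Of 7 leukocyte markers PTPRC, CD3E and TYROBP were at or near 0, and the sums of the 7 were 94.9 to 101 CPM and 93.2 to 101 CPM, nearly all of it CD68. Of the 6 theca markers 4 were at or near 0 (sums 7.31 to 7.67 and 6.89 to 7.86 CPM), and the 6 endothelial markers summed to 27.4 to 30.4 and 24.9 to 27.4 CPM. The 6 epithelial markers summed to 2070 to 2180 and 1840 to 2350 CPM, nearly all of it KRT7 and KRT19. The 7 fibroblast and stromal markers, led by COL1A1, summed to 1310 to 1480 CPM in FOXL2WT and 1590 to 1600 CPM in FOXL2C134W. COL1A1, which is also in the collagen list, was the only marker called.

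The same change of FOXL2 form was made in the 6 libraries that also received FOXO1-3A, which share no library with the comparison above. There, 20 genes were called, 0.144% of those tested, 5 higher and 15 lower. DESeq2 called 95, and edgeR with length and GC offsets 108. At an unadjusted p under 0.05 there were 1878 genes (13.5%) with FOXO1 and 3535 (25.5%) without, and absolute log2 fold changes had a median of 0.083 with and 0.11 without it. The median standard error was 0.079 on the log2 scale in both comparisons. FOXL2 and SMAD3 were again lower with the mutant form, by 1.33 and 1.31 on the log2 scale, and so was FOXO1, at 43.2 ± 4.06 CPM in place of 117 ± 14.5 CPM (SD, n = 3). The 2 comparisons therefore also differ in the amounts of all 3 transfected RNAs. The number of calls with FOXO1 was 7 without FOXL2C134W+FOXO1 replicate A, 13 without FOXL2C134W+FOXO1 replicate C, 13 without FOXL2WT+FOXO1 replicate A or B, and 446 when genes with as little as 1 count in any library were tested. Of the 989 genes called higher without FOXO1, 72.9% had the same sign with FOXO1 and their median was 0.06 in place of 0.32. Of the 569 called lower, 83.5% had the same sign and their median was -0.08 in place of -0.21. Both sets were chosen by their calls without FOXO1, so medians nearer 0 with it follow in part from that choice. Over all genes tested the share with the same sign was 61.8%.

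A test of the difference between both log2 fold changes called 192 genes, 1.38% of those tested, and 169 of the genes called higher and 15 of those called lower were among them. It gave 50 genes without FOXL2WT replicate B, 79 without FOXL2C134W replicate B, 81 without FOXL2C134W replicate C and 412 without FOXL2C134W replicate A, and 49 without FOXL2WT+FOXO1 replicate B, 45 without FOXL2C134W+FOXO1 replicate A and 119 without FOXL2C134W+FOXO1 replicate C. MKI67 was at 24.2, 34.6 and 25.7 CPM in FOXL2WT+FOXO1 and at 29.4, 35.1 and 31.9 CPM in FOXL2C134W+FOXO1, and HSPG2 at 228, 249 and 200 CPM against 213, 268 and 205 CPM. These levels overlapped between the groups and lay between those of FOXL2WT and FOXL2C134W without FOXO1. SMARCA4 had a log2 fold change of 0.02 with FOXO1, and the difference from its value without FOXO1 was 0.65 (standard error 0.08, edgeR adjusted p = 0.0012). By contrast, CXCL8 was at 95.4, 85.9 and 79.5 CPM in FOXL2WT+FOXO1 and at 51.8, 44.6 and 51.2 CPM in FOXL2C134W+FOXO1. Its log2 fold change was -0.82 with and -0.86 without FOXO1, a difference of -0.05 (standard error 0.10, edgeR adjusted p = 0.9). Besides the transfected genes, 10 genes were called in the same direction in both comparisons, 8 lower (CXCL8, ATF3, PMAIP1, KLF4, TNFAIP3, SAT1, PIK3IP1 and ZFP36L2) and 2 higher (ZNF185 and F3). Without FOXO1, ZFP36L2 was not called without FOXL2WT replicate A or B or FOXL2C134W replicate A or C, nor F3 without FOXL2WT replicate A or C or FOXL2C134W replicate B or C. They are given as the whole set and were not chosen by the naming rule.

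**Figure D5:**
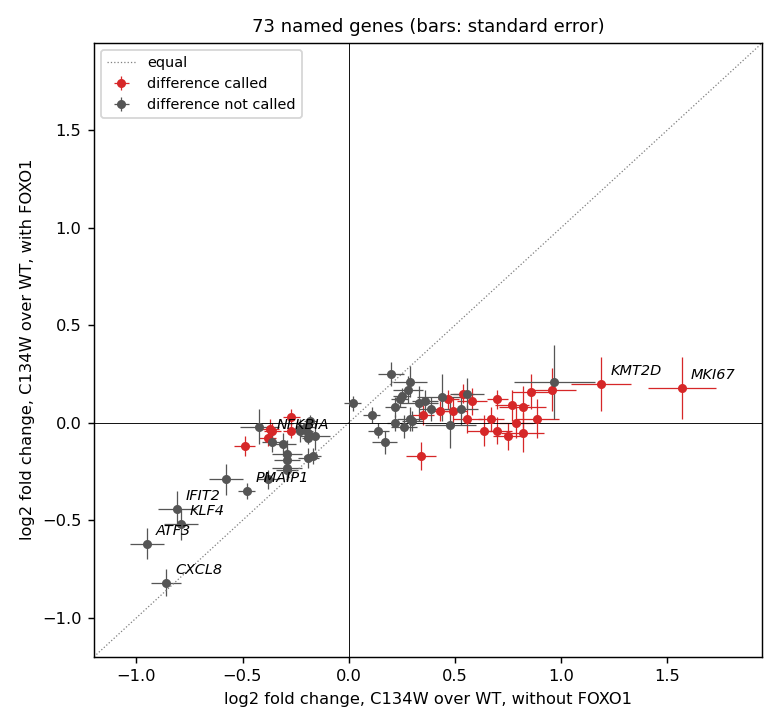
log2 fold change of FOXL2C134W over FOXL2WT without FOXO1 (horizontal) and with FOXO1 (vertical) for 73 named genes (the transfected genes and IFNB1 are not drawn), bars showing the standard error and red points those whose difference was called. Genes that rose without FOXO1, such as MKI67 (1.57) and KMT2D (1.19), lie at 0.18 and 0.20 with it, and CXCL8 lies on the line of equal values. Most named genes were chosen for a small p without FOXO1.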

How the data were processed

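Gene expression was measured by RNA sequencing in 15 HGrC1 samples, and groups and replicates were taken from the labels. The authors obtained estimated counts with salmon 1.1.0 on hg38 transcripts from 75-bp single-end stranded mRNA reads, and the deposited gene table holds them summed to 37787 genes, rounded and not normalized. The deposited TPM values, per transcript, were used only to weight transcript lengths. Transcripts were joined to GENCODE 44 for coordinates and GC content (98.4% found).

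Genes were filtered with filterByExpr, scaled with TMM and tested with glmQLFit and glmQLFTest (edgeR 4.0.16, R 4.3.3), with all 15 libraries in the fit and Benjamini-Hochberg adjustment. Standard errors are the fold change divided by the root of F. Tables and figures were made with Python 3.11.15, pandas 2.3.3, numpy 2.4.6 and matplotlib 3.10.9. Tested on simulated data for FOXL2C134W against FOXL2WT over 13868 genes, the test recovered 80 of 100 changes of 0.5 and 92 of 100 changes of 1 on the log2 scale and called 14 unchanged genes. The simulated counts had no trend along gene length and no deviating replicate. These numbers therefore need not hold for the real libraries, which had both. Library totals were 14962245 to 25339094 estimated counts, and a count of 0 allows up to 3 counts, for counting error only. Replicate spread exceeded counting noise.

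Alternatives were DESeq2 1.42.0 with and without transcript length offsets, DESeq2 size factors, filters of at least 1 count in any and at least 10 in every library, only the libraries compared, a replicate block, offsets for length and GC content (lowess span 0.3), and leaving out each library. Length and GC offsets together were added after seeing the data. The 31 gene lists, the markers and the members were chosen with earlier results of these data known. Named genes are the transfected genes, the 8 higher and 8 lower with the smallest p and no overlap (pseudogenes and read-throughs left out), the 2 called members with the smallest p of each list (the most abundant if none was called) and the genes that the study names for this comparison. Other list members are given as examples of their list. Promoters of 250 bases were taken from RefSeq for 10791 genes. Reads of near-identical copies can be split between genes by salmon. Some genes that the rule or the lists named are not reported here.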

Additional observations from a re-analysis of the deposited data

Results flagged for a closer look

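For 31 of the 77 named genes the log2 fold change of FOXL2C134W over FOXL2WT differed between cells without and with FOXO1, by the edgeR test of the difference itself (adjusted p under 0.05), as did 1.38% of all genes tested. Most named genes were chosen for a small p without FOXO1, so their share and the sign of their difference follow in part from that choice. Values are the fold change without FOXO1 minus that with FOXO1. Among the transfected genes it was -0.60 for FOXL2, -0.41 for SMAD3 and 1.41 for FOXO1, the last of which was transfected only in the libraries with FOXO1.

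Among the other 28 genes the difference was positive for 22. The chromatin and transcription regulators were SMARCA4 (0.65), NFIC (0.82), HCFC1 (0.74), ARID1A (0.47), EP400 (0.78), KMT2D (0.99), CREBBP (0.87) and GLI2 (0.79). The genes of the cytoskeleton, matrix and cell surface were MYH9 (0.57), FLNA (0.35), PLEC (0.68), FLNC (0.39), LTBP2 (0.32), COL4A2 (0.37), COL5A1 (0.55), HSPG2 (0.88), LAMA5 (0.68) and CELSR2 (0.74). The others were SYVN1 (0.51), MKI67 (1.39), FASN (0.43) and RRBP1 (0.71). The difference was negative for 6, NFKBIA (-0.30), F2RL1 (-0.36), UBE2L6 (-0.31), SDC2 (-0.30), CMPK2 (-0.34) and XBP1 (-0.24).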

How the results depend on the processing

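The samples carry replicate letters, but same-letter libraries of FOXL2WT and FOXL2C134W did not deviate together (correlations 0.0398, -0.0413 and 0.0181), so the letter was not taken as a pairing. With the letter as a replicate block 1562 genes were called in the main comparison, 18 with FOXO1 and 163 for the difference, within 1.5 times of the values without the block. Leaving out a library gave 745 to 2168 genes for FOXL2C134W against FOXL2WT, 555 to 1323 higher and 190 to 845 lower, 7 to 22 with FOXO1 and 45 to 412 for the difference. DESeq2 with transcript length offsets gave 759 genes, 503 higher and 256 lower, 65 with FOXO1 and 120 for the difference. DESeq2 gave 95 with FOXO1 and 366 for the difference, and the filter of at least 1 count gave 446 and 551. With FOXO1 there were also 32 with at least 10 counts in every library, 9 in a fit of only the libraries compared, 43 with length offsets, 36 with length offsets and the block, 56 with GC offsets and 108 with length and GC offsets together. The causes were not tested. All other settings left these counts within 1.5 times. Of 1306 values of named genes under an alternative, 1227 kept direction and side of the threshold, 53 lost it, 17 gained it and 9 changed sign. These were FOXO1, at 1.03 in DESeq2 with transcript length offsets, 0.04 with length offsets, 0.05 with length offsets and the block, 0.04 with both offsets and -0.06 to 0.02 when a library was left out, ITGB1, at -0.04 with the same 3 length offsets, and BRCA2, at -0.18. Of the 71 named genes called, 51 were called in the same direction in every setting run. Genes under about 10 counts per library, such as IFNB1, are limited by depth.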
